A study of Mus musculus with 9 samples.

Results

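Complex I, the NADH:ubiquinone oxidoreductase of the mitochondrial respiratory chain, was followed through the transcripts of its nuclear genes in allografted endothelial tumors. All genes of the count table whose symbol starts with Ndufa, Ndufb, Ndufc, Ndufs or Ndufv were taken, with pseudogenes marked -ps left out, which gave 45 of 24421 genes. These were 36 genes of structural subunits, 7 assembly factors named Ndufaf, and the pair Ndufa4 and Ndufa4l2. The tumors grew from bEnd.3, a mouse brain endothelial line transformed by polyoma middle T antigen, in the flank of male athymic mice (Nu/Nu nude) of unstated age. The treated mice received R-propranolol, the stereoisomer with little activity at the beta-adrenergic receptor, intraperitoneally at 6 mg/kg per day on 5 days a week from the second day after the cells were injected. The control mice received the vehicle, ethanol in buffered saline. RNA of whole tumors was sequenced from 4 vehicle and 5 R-propranolol tumors, 1 library each. The model rests on a single transformed line, and the tumor RNA also holds RNA of host cells.

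Complex I oxidizes NADH, passes the electrons to ubiquinone and pumps protons across the inner mitochondrial membrane. Its N module binds NADH, its Q module reduces ubiquinone, and its membrane arm, with a proximal and a distal part, carries the proton pumps. The pumps themselves are encoded by mitochondrial DNA, whose genes are absent from the count table, while the other subunits are imported and joined by assembly factors that are not part of the finished enzyme. Tissues with a high oxidative demand, such as heart and skeletal muscle, are rich in the complex.

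Total counts per tumor were 20599904 to 27852630. R-propranolol replicate 5 stood apart: 11.6% of its counts fell on 18 genes of skeletal muscle, a share that was 0.000635% to 0.0422% elsewhere. R-propranolol replicate 2 also stood apart, with a summed level of 7 fibroblast genes of 32193 CPM (counts scaled to a common library total), against 5230 to 17395 in the other 8. The 10 endothelial genes summed to 462 to 956 CPM in all 9 tumors, so each library carried endothelial RNA. The sum does not separate RNA of the bEnd.3 line from RNA of host vessels. In R-propranolol replicate 5, 3 of the 10 were at their highest of the 9 tumors. Another 1, Tie1, was at its lowest there, at 60.0 CPM against 150 to 205 CPM in the other 8. The titles of the pair vehicle 1 and vehicle 2 share a number that differs between the other tumors, whose meaning is not stated, and their sum was tried as an alternative. CPM were scaled by TMM, which sets each library by the bulk of its genes. The main comparison of the complex I genes is given with and without R-propranolol replicate 5. Some single genes are given only by their levels, with that tumor set apart.

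Of the 45 genes, 44 had enough counts to be tested, with at least 90 counts in every tumor. The exception was Ndufs5, an accessory subunit of the proximal membrane arm, which is listed at 0 counts in all 9 tumors. A count of 0 allows a level of up to 0.106 to 0.199 CPM, taking 3 counts as the limit in each library, and this covers counting error only. The annotation behind the counts is not stated, and whether the 0 comes from the annotation or the counting was not tested, so it is not read as absence of the transcript.

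The summed level of the 45 genes was nearly the same in 8 of the tumors and about 4 times as high in the last. In the vehicle tumors it was 2186, 2300, 2350 and 2582 CPM. In the treated tumors it was 2230, 2201, 2444, 2249 and 9204 CPM. Apart from R-propranolol replicate 5 the groups overlapped, with a mean of 2354 ± 166 CPM in the vehicle group (SD, n = 4) and 2281 ± 110 CPM in the other treated tumors (SD, n = 4). Adding replicate 5 to the treated group moved its mean to 3666 ± 3098 CPM (SD, n = 5). The share of counts taken by these genes was 0.212% to 0.264% in 8 tumors and 0.656% in R-propranolol replicate 5. The 18 skeletal muscle genes, which include those of contractile proteins and creatine kinase, summed to 162426 CPM in that tumor and to 6.36 to 389 CPM in the other 8. Vehicle replicates 1 and 3 had 385 and 389 CPM of skeletal muscle genes, against 6.36 to 12.8 in the other 6 of these 8. Their complex I sums of 2186 and 2350 CPM lay within the range of those 6 or below it. These muscle levels were far below the 162426 CPM of R-propranolol replicate 5, so the comparison cannot show what muscle RNA adds there. Adipocyte genes were also high in R-propranolol replicate 5, with 9 genes summing to 3959 CPM against 37.9 to 278 in the other 8. The part of either cell type in the complex I levels of this tumor was not tested. In bulk tissue, more or fewer cells of a type and more or less RNA per cell cannot be told apart.

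**Figure D1:**
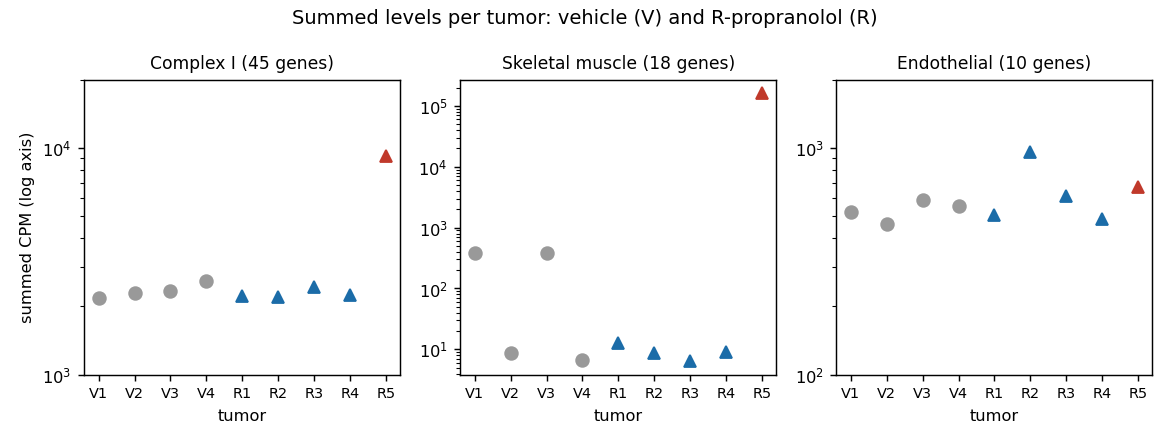
Summed CPM (log axis) in each tumor of the 45 complex I genes, 18 skeletal muscle genes and 10 endothelial genes, with circles for vehicle (V1 to V4) and triangles for R-propranolol (R1 to R5, R5 in red). Complex I genes sit between 2186 and 2582 CPM in 8 tumors and at 9204 in R5, where muscle genes reach 162426 CPM, while endothelial genes are highest in R2.

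No complex I transcript passed the test across all genes between R-propranolol and vehicle tumors. With all 9 tumors, edgeR's quasi-likelihood test called 0 of 44 genes at a Benjamini-Hochberg adjusted p under 0.05, where 0% of all 13901 genes tested were called. The smallest adjusted p among the 44 was 0.876. At an unadjusted p under 0.05 the count was 0 of 44 (2.3% of all genes), and 0 had groups that did not overlap (1.26% of all genes). The fitted mean was higher under R-propranolol for 43 of the 44 genes, against 54.3% of all genes, with a median log2 fold change of 0.63 beside 0.03 over all genes. Ndufaf7, with a log2 fold change of -0.00, was the other. DESeq2's Wald test gave no p for 21 of the 44, and called 0 of the 23 others.

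Without R-propranolol replicate 5 that direction was gone. The same edgeR test called 0 of 44 genes (0% of the 13743 genes tested), with all adjusted p at 0.9995. A lower fitted mean was found for 35 of 44 genes, against 46.3% of all genes, and the median log2 fold change was -0.06 beside 0.01. At an unadjusted p under 0.05 there were 2 genes (3.78% of all genes), Ndufb2 and Ndufa4, both with a lower mean (1.13% of all genes), and 0 had groups that did not overlap (2.92% of all genes). Scaled by library size alone, a lower mean was found for 43 of 44 genes (62.9% of all genes) with a median of -0.12, and the groups of 3 did not overlap (3.22% of all genes), Ndufb2, Ndufb6 and Ndufa4, all lower. Ndufb6 shares 257 of its 659 exon bases with Smim27 on the other strand, and whether reads were counted by strand is not stated. With TMM the fold changes ran from -0.20 to 0.04, apart from Ndufa4l2 at 1.13. The 95% interval lay within 0.5 of 0 on the log2 scale for 42 of the 44 genes, against 60.6% of all genes. The other 2 were Ndufaf3, at -0.52 to 0.38, and Ndufa4l2, at -0.59 to 2.84. These intervals were narrow enough that a change of 2-fold in either direction lay outside the interval of 43 of the 44 genes (80.3% of all genes).

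**Figure D2:**
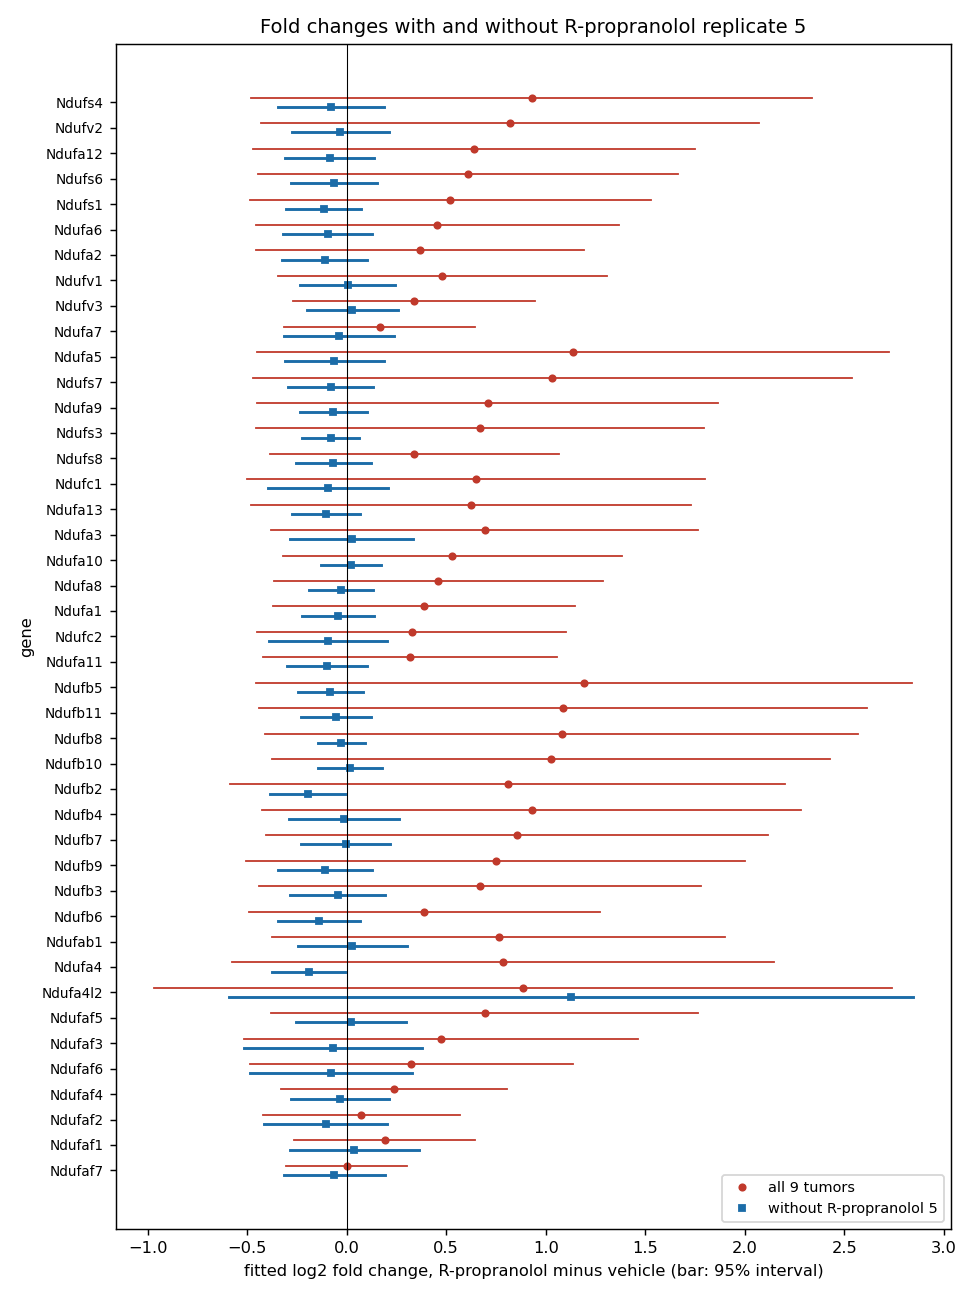
Fitted log2 fold change of R-propranolol against vehicle for 43 of the 44 genes tested, with 95% intervals, from all 9 tumors (red circles) and without R-propranolol replicate 5 (blue squares). Red points lie between -0.00 and 1.19 with intervals that span 0, and blue points lie between -0.20 and 0.04 with short intervals, apart from Ndufa4l2 at 1.13.

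Among the 8 other tumors, complex I transcripts varied about as much as genes of a like level. The median coefficient of variation there was 12.8% over all genes tested and 10.4% over the 9334 genes in the same range of mean CPM. It was 8.56% over 38 nuclear genes of complexes II to V and 9.69% over the complex I genes. Among the complex I genes it was lowest for Ndufb8 at 3.36% and, leaving out Ndufa4l2, reached 16.9%. Counting error alone would give a median of 2.83%, and 39 of the 44 genes spread over 2 times as much as their counts alone would. Vehicle replicate 4 had the highest level of the 8 for 28 of the 44 genes, and R-propranolol replicate 2 the lowest for 16. Shares over all genes were not computed for these counts or for the excess over counting error. They are therefore not read as particular to complex I.

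The role groups gave a like picture among these 8 tumors. The 10 genes of the N module summed to 620.1 to 783 CPM in the 8 tumors and to 2299.9 CPM in R-propranolol replicate 5. The 6 of the Q module summed to 424 to 501 and 1966 CPM, and the 9 of the proximal membrane arm to 429 to 515 and 1487 CPM. The 10 of the distal membrane arm summed to 433 to 510.4 and 2611 CPM, and the 7 assembly factors to 86.1 to 110.0 and 198 CPM. For every group the 4 vehicle tumors and the treated tumors 1 to 4 overlapped. Without replicate 5 the median log2 fold change lay between -0.07 and -0.05 in the N module, the Q module, both membrane arms and the assembly factors. With all tumors it was 0.89 in the distal membrane arm, 0.69 in the Q module, 0.50 in the N module and in the proximal membrane arm, and 0.24 among the assembly factors.

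Among the 10 genes of the N module, Ndufs1 encodes the large iron-sulfur subunit, Ndufs4 an accessory subunit lost in a form of Leigh syndrome, and Ndufa2 a small accessory subunit. Ndufs4 stood at 23.3, 23.4, 30.6 and 25.5 CPM in the vehicle tumors and at 23.7, 28.6, 22.6, 22.7 and 147 CPM in the treated ones. Ndufs1 stood at 85.6, 93.6, 86.5 and 99.2 CPM under vehicle and at 85.4, 74.1, 87.7, 89.7 and 318 CPM under R-propranolol. Ndufa2 was at 67.6, 68.3, 81.5 and 82.0 CPM under vehicle and at 69.0, 69.0, 77.3, 62.4 and 205 CPM under R-propranolol. For each, the treated tumors 1 to 4 overlapped the vehicle tumors and replicate 5 was the highest of the 9. The log2 fold change of Ndufs4 was 0.93 (SE 0.62) with all tumors and -0.08 (SE 0.12) without replicate 5. That of Ndufs1 was 0.52 (SE 0.44) and -0.12 (SE 0.08), and that of Ndufa2 0.37 (SE 0.36) and -0.11 (SE 0.09). In the whole module 10 of 10 genes had a higher mean with all tumors and 8 of 10 a lower mean without replicate 5, and 0 passed.

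The Q module varied least among the tumors other than replicate 5, with a median coefficient of variation of 6.99% over its 6 genes. Ndufa5, an accessory subunit of this module, was at 30.8, 29.9, 41.1 and 38.7 CPM under vehicle and at 33.9, 33.1, 33.2, 34.4 and 251 CPM under R-propranolol. Ndufs3, an early building block of the complex, was at 54.9, 57.0, 58.7 and 63.5 CPM under vehicle and at 57.5, 53.2, 55.5, 55.5 and 244 CPM under R-propranolol. Treated tumors 1 to 4 lay within or just below the range of the vehicle tumors for both genes. Without replicate 5 the log2 fold change was -0.06 (SE 0.11) for Ndufa5 and -0.08 (SE 0.06) for Ndufs3. With all tumors it was 1.14 (SE 0.70) and 0.67 (SE 0.50).

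In the proximal membrane arm, 8 of the 9 genes were tested. Ndufa13, also known as Grim19, was at 64.4, 67.1, 71.2 and 73.2 CPM under vehicle and at 58.1, 63.9, 70.7, 64.3 and 275 CPM under R-propranolol. Ndufa3 was at 28.8, 31.4, 39.8 and 39.8 CPM under vehicle and at 34.5, 35.2, 41.9, 30.7 and 140.4 CPM under R-propranolol. The X-linked Ndufa1 was at 42.0, 43.2, 46.0 and 51.5 CPM under vehicle and at 43.4, 45.1, 47.6, 41.4 and 121 CPM under R-propranolol. In each the groups overlapped. Without replicate 5 the log2 fold change was -0.10 (SE 0.07), 0.02 (SE 0.14) and -0.04 (SE 0.08) in that order. With all tumors it was 0.62 (SE 0.49), 0.69 (SE 0.47) and 0.39 (SE 0.33). Ndufa13 shares 375 of its 1251 exon bases with Tssk6 on the other strand, and whether reads were counted by strand is not stated.

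The distal membrane arm, which holds the far proton pumps, had the highest levels in replicate 5 relative to the other tumors. Ndufb10 was at 48.8, 48.5, 45.5 and 51.3 CPM under vehicle and at 45.5, 47.3, 51.0, 52.5 and 298 CPM under R-propranolol. Ndufb9 was at 94.7, 99.1, 100.5 and 112 CPM under vehicle and at 97.6, 77.0, 106, 96.3 and 476 CPM under R-propranolol. Ndufb2 was at 29.1, 32.2, 29.2 and 32.4 CPM under vehicle and at 26.4, 24.6, 29.7, 26.7 and 162 CPM under R-propranolol. Only for Ndufb2, among these 3 accessory subunits, did the tumors other than replicate 5 come near to separating, with 3 of 4 treated tumors below every vehicle tumor. Its log2 fold change without replicate 5 was -0.20 (SE 0.08, 95% interval -0.39 to -0.01), with an adjusted p of 0.9995 by edgeR. The value for Ndufb10 was 0.01 (SE 0.07), and for Ndufb9 -0.11 (SE 0.10). With all tumors the log2 fold changes were 1.03 (SE 0.62) for Ndufb10, 0.81 (SE 0.61) for Ndufb2 and 0.75 (SE 0.55) for Ndufb9. The largest contrast of all belonged to Ndufb5 (chr3:32736990-32751566, GRCm38), named here after its values were seen, with 39.3 to 48.3 CPM in 8 tumors and 347 CPM in replicate 5.

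Ndufab1 encodes the mitochondrial acyl carrier protein, which sits in both arms of the complex and also serves fatty acid and lipoate synthesis. It was at 37.0, 41.1, 46.4 and 54.1 CPM under vehicle and at 45.6, 43.4, 50.7, 42.5 and 197 CPM under R-propranolol. Treated tumors 1 to 4 lay inside the vehicle range, and the log2 fold change was 0.03 (SE 0.12) without replicate 5 and 0.76 (SE 0.50) with it.

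**Figure D3:**
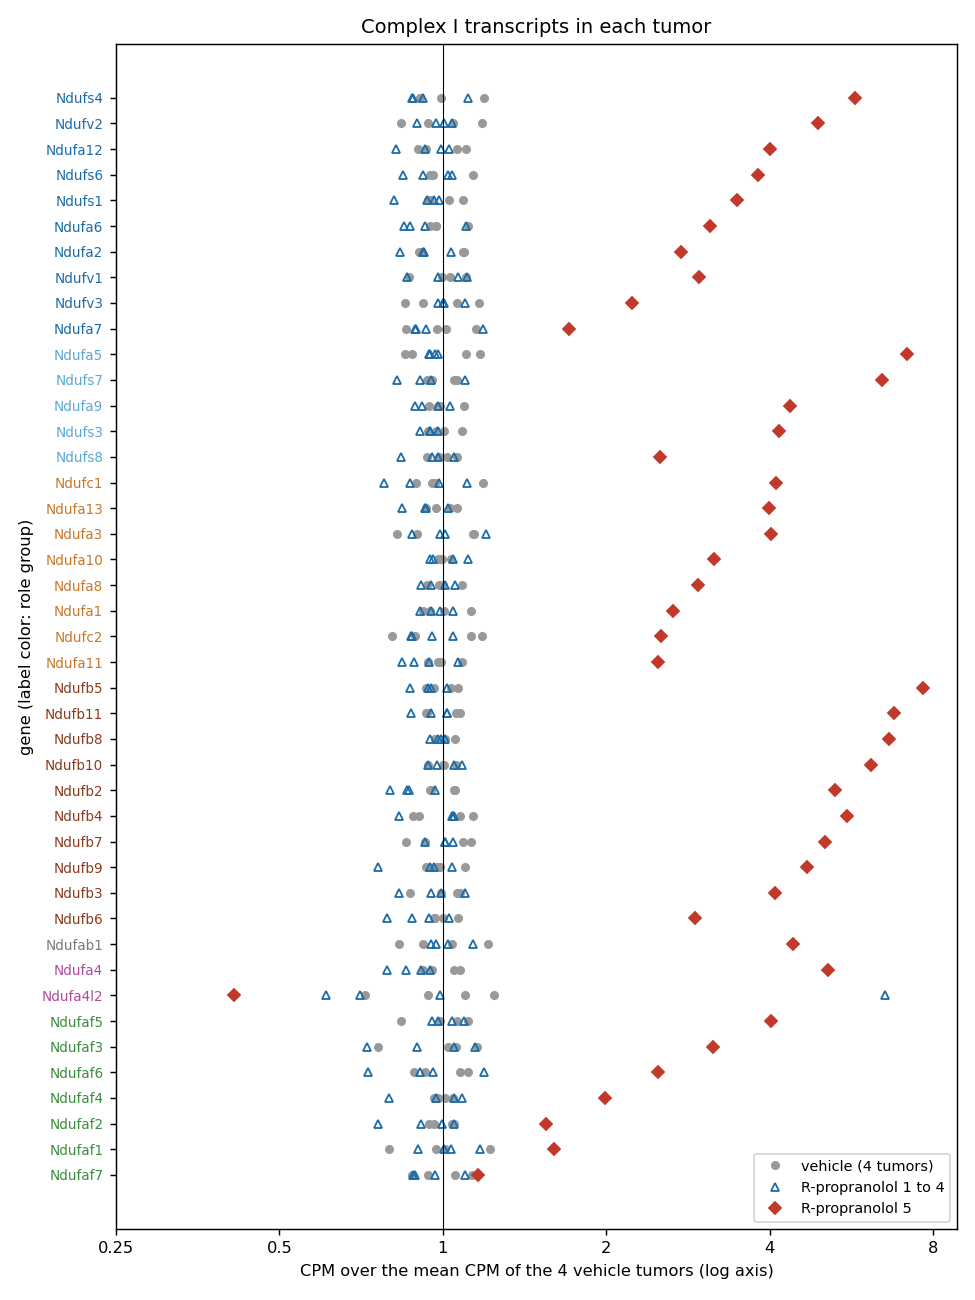
CPM of 43 of the 44 genes tested in every tumor, divided by the mean of the 4 vehicle tumors (log axis), with gray circles for vehicle, open triangles for R-propranolol 1 to 4 and red diamonds for R-propranolol 5; label colors give the role groups. Circles and triangles are mixed near 1, the red diamond is the highest point in 42 of them, and Ndufa4l2 has 1 triangle far above the rest, from R-propranolol 2.

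The assembly factors were expressed at lower levels and stood less high in replicate 5. Ndufaf1, which helps to build the membrane arm, was at 14.0, 17.0, 17.7 and 21.4 CPM under vehicle and at 17.6, 15.8, 20.5, 18.2 and 28.1 CPM under R-propranolol. Ndufaf2, a late factor at the N module, was at 8.48, 7.63, 8.41 and 7.78 CPM under vehicle and at 8.05, 7.36, 6.14, 8.48 and 12.5 CPM under R-propranolol. Ndufaf5, a hydroxylase that acts on Ndufs7, was at 10.9, 10.1, 8.61 and 11.4 CPM under vehicle and at 10.1, 9.81, 10.7, 11.2 and 41.4 CPM under R-propranolol. Groups overlapped in all 3, and replicate 5 was again the highest tumor on the TMM scale. Scaled by library size alone, replicate 5 was not the highest for Ndufaf1 or Ndufaf2. Ndufaf1 had 422 of 21084749 counts there and 451 of 20599904 in vehicle replicate 4. Ndufaf2 had 188 counts there and 197 of 21185689 in vehicle replicate 1. Without replicate 5 the log2 fold change was 0.04 (SE 0.14) for Ndufaf1, -0.11 (SE 0.13) for Ndufaf2 and 0.02 (SE 0.12) for Ndufaf5. With all tumors it was 0.19 (SE 0.20), 0.07 (SE 0.22) and 0.69 (SE 0.47). Ndufaf2 shares 1955 of its 2978 exon bases with B230220B15Rik, a non-coding gene on the other strand that is absent from the table. Ndufaf7, a methyltransferase, moved least: it was at 22.3 to 28.8 CPM in 8 tumors and at 29.5 CPM in replicate 5. It was singled out after its values were seen.

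Ndufa4 is named as a complex I subunit but is now placed in complex IV, and Ndufa4l2 is its paralog, known as a target of hypoxia-inducible factors. Ndufa4 (chr6:11900292-11907497, GRCm38) was at 79.2, 82.2, 90.2 and 92.5 CPM under vehicle and at 78.4, 68.0, 81.6, 73.6 and 440.1 CPM under R-propranolol. Treated tumors 1 to 4 were lower on average with 1 inside the vehicle range, at a log2 fold change of -0.19 (SE 0.08, 95% interval -0.37 to -0.01) and an adjusted p of 0.9995 by edgeR. With replicate 5 the log2 fold change turned to 0.79 (SE 0.60).

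Ndufa4l2 (chr10:127514967-127517154, GRCm38) had the opposite profile, and it too was singled out after its values were seen. It was at 13.6, 18.03, 10.4 and 15.9 CPM under vehicle and at 8.82, 94.5, 14.3, 10.2 and 5.98 CPM under R-propranolol. R-propranolol replicate 2 was more than 5 times as high as any other tumor, and replicate 5 was the lowest of the 9. The counts behind these values were 2360 reads in replicate 2 and 90 in replicate 5. The log2 fold change was 0.88 (SE 0.82) with all tumors, 1.13 (SE 0.75) without replicate 5 and -0.56 without replicate 2, so its direction rested on that tumor. R-propranolol replicate 2 also had the highest sums of fibroblast genes (32193 CPM) and endothelial genes (956 CPM). Its sum of 6 mural cell genes, a list added after the data were seen, was 339 CPM against 98.6 to 142 in the tumors other than replicate 5, which had 232. The 10 hypoxia genes were mostly low in replicate 5 as well: 6 of them were at their lowest of the 9 tumors there, with Egln3 at 0.126 and Car9 at 0.135 of the mean of the other treated tumors, and the median ratio was 0.262. Ldha was the only one at its highest in that tumor. Without Ldha, a sum chosen after the data were seen, the other 9 summed to 1360.1 CPM in replicate 5, to 5954 in replicate 2 and to 2740.1 to 6621 in the other 7. Their part in the level of Ndufa4l2 was not tested.

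R-propranolol replicate 5 was the highest of the 9 tumors for 43 of the 44 genes, against 36.5% of all genes tested. Its level was over 2-fold above the mean of the other 4 treated tumors for 39 of 44 genes (22.1% of all genes), with a median ratio of 3.95 beside 0.953 over all genes. A single tumor gives no error for these ratios, and they are a description. The count and the ratios rest on TMM, whose factor was 0.753 for this tumor and 0.966 to 1.10 for the others. Scaled by library size alone, the complex I sum was 6930 CPM in replicate 5 and 2127 to 2641 CPM in the other tumors. Ndufaf1, Ndufaf2 and Ndufaf7 were then not at their highest in replicate 5. The ratio differed by place in the complex. In the distal membrane arm the median was 5.82, from 3.21 for Ndufb6 to 8.11 for Ndufb5. In the Q module it was 4.48, from 2.63 for Ndufs8 to 7.47 for Ndufa5. In the N module it was 3.55, from 1.75 for Ndufa7 to 6.05 for Ndufs4. Proximal membrane genes had a median of 3.06, from 2.66 for Ndufa11 to 4.39 for Ndufc1. The assembly factors were lowest with a median of 2.04, from 1.21 for Ndufaf7 to 3.96 for Ndufaf5. Ndufab1 stood at 4.32, Ndufa4 at 5.84 and Ndufa4l2 at 0.187.

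**Figure D4:**
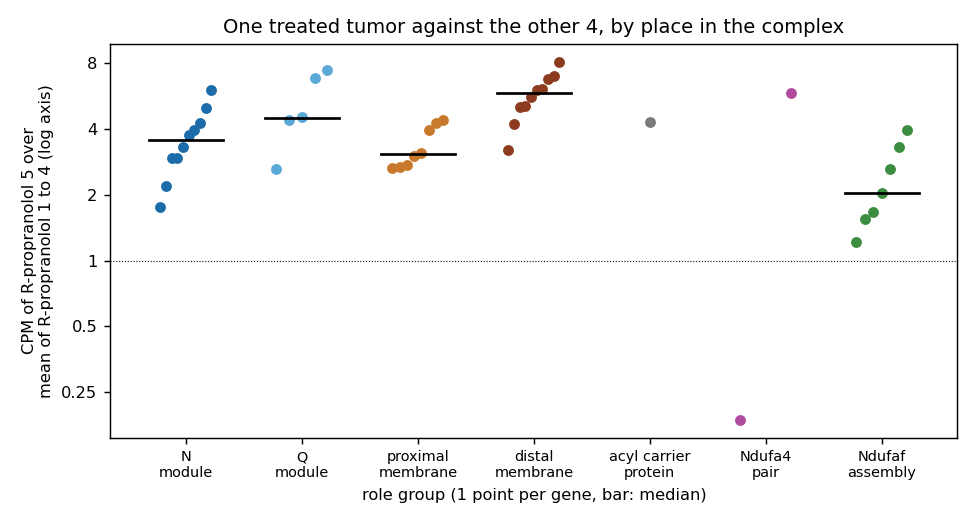
Ratio of the CPM in R-propranolol replicate 5 to the mean of R-propranolol 1 to 4 (log axis), for 43 genes, 1 point each, by role group, with a bar at the median over all tested genes of groups of more than 2. The distal membrane arm has the highest median, 5.82, and the Ndufaf assembly factors the lowest, 2.04, with overlap between groups; Ndufa4l2 lies at 0.187.

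The make-up of the complex I transcripts varied little in the other 8 tumors, apart from the Ndufa4 pair, at 8.79% in R-propranolol replicate 2 and 5.30% in replicate 5 against 4.10% to 4.81% in the other 7. Per kilobase of exon, the distal membrane arm made 20.9% to 22.8% of the level summed over the 44 genes in these 8 and 29.5% in replicate 5. The Q module made 14.9% to 16.2% and 18.2%. The proximal membrane arm made 28.3% to 29.5% and 23.4%, the N module 24.1% to 26.0% and 21.8%, and the assembly factors 2.41% to 2.87% and less than that in replicate 5. Each share of replicate 5 lay outside the range of the other 8 tumors for these 5 groups. A share can fall because others rise, and all 5 groups were higher in CPM in replicate 5 than in any other tumor.

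Levels between genes were compared as mean CPM per kilobase of exon over the 8 other tumors. Among the 35 subunits tested the median was 34.5 and the range 5.12 for Ndufb2 to 126 for Ndufa2. High levels were also found for Ndufa1 at 107, Ndufa8 at 98.8, Ndufb9 at 94.9 and Ndufb6 at 77.2. The 7 assembly factors had a median of 5.79, from 2.62 for Ndufaf2 to 11.8 for Ndufaf1. The length is that of all annotated exons joined, so a gene with long minor transcripts, such as Ndufb2 with 5628 exon bases, is set low on this scale.

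The sequences just upstream of the genes were set beside this range in replicate 5. RefSeq promoter windows on GRCm38.p6, of 250 bases before and 50 after a start, were matched by symbol for 39 of the 45 genes, giving 41 windows. The 250 bases upstream are shown for Ndufb5, with the highest ratio, and for Ndufaf1 and Ndufaf7, with the lowest ratios of the genes with a window. Ndufa5, highest in the Q module, and Ndufb4 and Ndufb7 of the distal arm were picked from the next highest ratios. They were picked because these bases hold an NRF1, ETS or YY1 match (motifs given below), and genes of like ratio without a match are not shown. Their matches therefore say nothing about the ratio. Capitals mark matches, on either strand, to the motif of nuclear respiratory factor 1 (NRF1), which reads GCGCA, any base, then GCGC (on the other strand GCGC, any base, then TGCGC), or to the ETS family motif CCGGAAG with reverse complement CTTCCGG; windows without capitals hold neither. Sequences run 5′ to 3′ on the strand of the gene.
Ndufb5 (chr3:32736813-32737062, plus strand): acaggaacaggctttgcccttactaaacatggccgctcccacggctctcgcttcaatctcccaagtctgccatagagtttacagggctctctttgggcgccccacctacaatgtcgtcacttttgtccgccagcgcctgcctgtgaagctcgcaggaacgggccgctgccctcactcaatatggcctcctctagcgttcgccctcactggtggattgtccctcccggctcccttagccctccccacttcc
Ndufa5 (chr6:24527691-24527940, minus strand): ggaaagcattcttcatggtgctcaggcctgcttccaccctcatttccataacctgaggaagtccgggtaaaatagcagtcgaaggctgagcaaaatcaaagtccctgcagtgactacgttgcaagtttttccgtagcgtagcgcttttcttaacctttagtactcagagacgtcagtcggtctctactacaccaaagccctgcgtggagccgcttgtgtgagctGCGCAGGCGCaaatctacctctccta
Ndufb4 (chr16:37654369-37654618, minus strand): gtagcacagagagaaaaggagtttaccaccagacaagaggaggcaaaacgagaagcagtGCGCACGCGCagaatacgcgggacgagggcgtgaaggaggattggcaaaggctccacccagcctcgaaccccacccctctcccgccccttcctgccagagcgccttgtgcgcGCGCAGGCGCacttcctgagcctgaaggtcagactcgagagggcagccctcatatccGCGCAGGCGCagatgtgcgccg
Ndufb7 (chr8:83566508-83566757, plus strand): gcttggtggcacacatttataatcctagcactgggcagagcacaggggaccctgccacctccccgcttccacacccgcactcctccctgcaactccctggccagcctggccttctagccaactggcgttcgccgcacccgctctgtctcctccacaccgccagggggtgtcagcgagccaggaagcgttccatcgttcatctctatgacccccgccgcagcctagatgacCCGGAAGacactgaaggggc
Ndufaf1 (chr2:119662835-119663084, minus strand): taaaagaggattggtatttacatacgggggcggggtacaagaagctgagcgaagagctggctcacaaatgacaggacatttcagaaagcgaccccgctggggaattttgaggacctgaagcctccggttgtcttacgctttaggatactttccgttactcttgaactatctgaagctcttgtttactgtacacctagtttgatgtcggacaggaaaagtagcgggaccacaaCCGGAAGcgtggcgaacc
Ndufaf7 (chr17:78936885-78937134, plus strand): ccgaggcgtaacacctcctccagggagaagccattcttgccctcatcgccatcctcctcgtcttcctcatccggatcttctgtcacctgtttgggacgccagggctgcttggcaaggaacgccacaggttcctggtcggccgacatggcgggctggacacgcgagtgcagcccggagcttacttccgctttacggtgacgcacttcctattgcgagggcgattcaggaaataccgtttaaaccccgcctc

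Ndufb4 held 3 NRF1 matches, starting 191, 79 and 22 bases before the start, and Ndufa5 held 1 starting 26 bases before it. The NRF1 motif was in 10 of the 41 windows, or 24.4%, against 4.6% of 32851 windows of all genes. These were windows of 9 genes, Ndufa5, Ndufa6, Ndufa8, Ndufa11, Ndufb4, Ndufs5, Ndufs6, Ndufaf4 and Ndufaf5, of which Ndufa5 has 2 windows. The motif of YY1, AAGATGGC with reverse complement GCCATCTT, was in 17.1% of the windows against 2.75%, in Ndufa3, Ndufa9, Ndufb8, Ndufc1, Ndufs4, Ndufs6 and Ndufs7. The ETS motif was in 12.2% against 8.86%, and a GC box, GGGCGG with reverse complement CCGCCC, in 51.2% against 35.7%. The letters TCAAGGTCA of the estrogen-related receptors, reverse complement TGACCTTGA, were in 0 of the 41 windows against 0.423% of all windows. A match is a description of the letters in these windows. Ndufb5, with the highest ratio in replicate 5, and Ndufaf7, with the lowest of the assembly factors, both lacked the NRF1 and ETS letters in the stretch shown.

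Other genes of complex I assembly and of the respiratory chain mostly had a like profile. Of 11 further assembly factors tested, 11 had a higher mean with all tumors and 7 a lower mean without replicate 5, and 0 passed. Ecsit, a factor of the membrane arm intermediate, was at 10.8 to 12.1 CPM in 8 tumors and 69.1 CPM in replicate 5, and Atp5sl, also called Dmac2, at 9.22 to 12.2 and 36.8 CPM. The log2 fold change with all tumors and without replicate 5 was 0.95 (SE 0.62) and -0.07 (SE 0.09) for Ecsit, and 0.60 (SE 0.43) and 0.02 (SE 0.11) for Atp5sl. Of 38 nuclear genes of complexes II to V tested, 36 had a higher mean with all tumors and 31 a lower mean without replicate 5, and the median log2 fold change was 0.62 and -0.06. Uqcrc2, a core subunit of complex III, was at 70.7 to 93.6 CPM in 8 tumors and at 442 in replicate 5. Cox6a1, the widely expressed form of a complex IV subunit, was at 212 to 263 CPM in those 8 and at 215 in replicate 5. Its counterpart of heart and skeletal muscle, Cox6a2, was at 0.07 to 1.76 CPM in the 8 tumors and at 639 in replicate 5, and Cox7a1, another muscle form, at 1.83 to 3.94 and 224 CPM. None of these genes passed the edgeR test, with adjusted p of 0.876 with all tumors and 0.9995 without replicate 5.

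Regulators of mitochondrial biogenesis did not pass either. The 10 genes had a median ratio of 1.21 between replicate 5 and the mean of the other treated tumors, with 5 highest and 4 lowest of the 9 tumors there. Ppargc1b, a coactivator, was at 1.67 to 3.14 CPM in 8 tumors and 31.99 in replicate 5. Yy1, a transcription factor with roles in mitochondrial gene expression, was the one of the 10 whose groups did not overlap. Of all genes tested, 1.26% had such groups with all tumors and 2.92% without replicate 5. Yy1 was at 83.4, 85.5, 81.2 and 88.3 CPM under vehicle and at 94.7, 98.2, 99.5, 96.2 and 96.4 CPM under R-propranolol. Its log2 fold change was 0.20 (SE 0.07) with all tumors, at an adjusted p of 0.876 by edgeR, and 0.20 (SE 0.05) without replicate 5, at an adjusted p of 0.9995. Scaled by library size alone the groups overlapped, with Yy1 at 86.7 to 91.6 CPM under vehicle, at 94.9 to 100.6 in treated tumors 1 to 4 and at 72.6 in replicate 5, and the log2 fold change with all tumors was 0.06. Among the hypoxia genes, Ldha was at 1206 to 1814 CPM in 8 tumors and 4803 in replicate 5, unlike the other 9, of which 6 were lowest there. Adm was at 15.8, 39.1, 38.5 and 46.2 CPM under vehicle and at 54.2, 98.1, 81.7, 32.4 and 18.6 CPM under R-propranolol, with overlap between the groups. The log2 fold change of Adm was 0.71 (SE 0.50) with all tumors and 0.93 (SE 0.40) without replicate 5, at adjusted p of 0.876 and 0.9995 by edgeR.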

How the data were processed

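RNA of 9 frozen tumors was sequenced as pairs of 150-base reads after preparation with the NEBNext Ultra kit. Per the labels, the authors used STAR, HTSeq and mm10, with neither versions, annotation nor strandedness stated. Deposited are raw counts per gene symbol, and HTSeq's totals of unassigned reads were left out. Those outside genes made 13.4% to 15.4% of all reads listed and ambiguous ones 1.81% to 1.98%. Reads with several places made 3.46% to 3.99%, and 7.86% in R-propranolol replicate 5.

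Counts were filtered with filterByExpr of edgeR 4.0.16 under R 4.3.3 (minimum count 10, minimum total 15), scaled by TMM, fitted by group and tested with the quasi-likelihood test, with Benjamini-Hochberg adjustment over all genes tested. CPM on the TMM scale use the factors of all tumors, also for the overlap of groups without R-propranolol replicate 5. Fold changes and 95% intervals without that tumor come from a fit that was filtered and scaled again. Total counts of 20599904 to 27852630 set the precision, and intervals of counts cover counting error only. The test was checked on simulated data. Alternatives were DESeq2 1.42.0 and its size factors, library size alone, limma-voom (limma 3.58.1) with quality weights, a replicate block, other filters, the sum of vehicle replicates 1 and 2, and each tumor left out in turn. Combinations of those with R-propranolol replicate 5 left out were also run.

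The genes, role groups and lists were chosen with earlier results of these data known. In each role group the genes given in full are those with the smallest p with all tumors, the smallest p without R-propranolol replicate 5 and the highest level per kilobase. In each further list they are the 2 with the smallest p. The values of 1 member are not reported here, and counts, sums and medians over the genes include it. Groups came from the treatment label. Replicate numbers were in the titles, but deviations of same-numbered tumors correlated at -0.05, -0.03, -0.59 and 0.33, so they were not taken as pairs. The sources do not tie each library to an animal beyond its title, and p-values measure only the spread between these tumors. Pairs of tumors of a group differed beyond counting error, with a chi-square per gene of 19.0 or more. Places and exon lengths are from GENCODE M21 on GRCm38, where 45 of 45 genes have 1 place, and 19 of them share exon bases with another gene. Promoters are from RefSeq on GRCm38.p6.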

Additional observations from a re-analysis of the deposited data

Results flagged for a closer look

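In each group of 4 or 5 tumors, the gap between the highest or lowest tumor and its nearest neighbor was set against the range of the group, with the 95% limit of Dixon's test. Of 108 groups tested over 43 of the complex I genes, 10 further genes and the complex I sum, 49 had a tumor past the limit. Chance alone passes about 1 in 20 independent groups. These groups are the same tumors taken again for each gene, so that rate does not apply to the count. R-propranolol replicate 5 accounted for 46, vehicle replicate 4 for 2 and R-propranolol replicate 2 for 1.

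In R-propranolol replicate 5 the summed level of the complex I genes was 9204 CPM. In the same tumor, the distal membrane arm had CPM of 347 for Ndufb5, 336 for Ndufb11, 445 for Ndufb8, 298 for Ndufb10, 94.1 for Ndufb4, 173 for Ndufb7, 162 for Ndufb2, 476 for Ndufb9, 123 for Ndufb3 and 156 for Ndufb6. The Q module had CPM of 251 for Ndufa5, 342 for Ndufs7, 299 for Ndufa9, 244 for Ndufs3 and 160.0 for Ndufs8. The N module had CPM of 147 for Ndufs4, 349.5 for Ndufv2, 259.5 for Ndufa12, 163 for Ndufs6, 318 for Ndufs1, 409 for Ndufv1, 194 for Ndufa6, 205 for Ndufa2 and 140.0 for Ndufv3. The proximal membrane arm had CPM of 140.4 for Ndufa3, 141 for Ndufc1, 275 for Ndufa13, 277 for Ndufa10, 254 for Ndufa8, 121 for Ndufa1, 132 for Ndufc2 and 146 for Ndufa11. The assembly factors had CPM of 41.4 for Ndufaf5, 18.7 for Ndufaf3, 17.2 for Ndufaf6 and 51.0 for Ndufaf4. The acyl carrier protein gene and Ndufa4 had CPM of 197 for Ndufab1 and 440.1 for Ndufa4. Outside complex I, the CPM were 442 for Uqcrc2, 4803 for Ldha, 639 for Cox6a2, 224 for Cox7a1, 36.8 for Atp5sl, 69.1 for Ecsit and 31.99 for Ppargc1b. Each of these was the highest value of its group. Ndufa7, Ndufaf1, Ndufaf2 and Ndufaf7 were the members among these 43 that stayed under the limit in this tumor, with Ndufa4l2, which was far from the group in R-propranolol replicate 2 instead, at 94.5 CPM. In vehicle replicate 4, Ndufs6 at 48.7 CPM and Ndufa6 at 69.4 CPM were the highest of the 4 vehicle tumors by a gap past the limit.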

How the results depend on the processing

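No complex I gene passed an adjusted p of 0.05 under any of 20 alternatives, of which DESeq2's Wald test gave a p for 23 of the 44 only. The count of genes with a higher mean was 43 of 44 as reported and 41 to 44 under DESeq2's size factors, library size alone, DESeq2, an unfiltered table, a minimum of 1 CPM in 4 tumors and the sum of vehicle replicates 1 and 2. It fell under limma-voom with quality weights to 14, with a median log2 fold change of -0.022, and under the replicate block to 10, with a median of -0.062. In the block R-propranolol replicate 5 is alone in its number, so by construction it does not bear on the group difference. The weight that voom estimated for it was 0.0425, against 0.416 to 3.83 for the other tumors. Leaving out each tumor gave medians from -0.064 (without R-propranolol replicate 5) to 0.82 (without R-propranolol replicate 4), and 9 to 44 genes with a higher mean. With R-propranolol replicate 5 left out, the median was -0.061 with 9 genes higher under DESeq2's size factors, -0.064 with 10 higher under the replicate block, and -0.12 with 1 higher under library size alone, where 3 genes, Ndufb2, Ndufb6 and Ndufa4, had groups that did not overlap. Library size alone moved the median of all genes to -0.10 with all 9 tumors, and that of complex I genes to 0.37. The pairing by number changed no call.

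Of 539 values of single named genes, 445 kept their sign and 94 turned it. With each tumor left out in turn, log2 fold changes ran over Ndufa4l2 -0.56 to 1.13, Ndufs4 -0.079 to 1.18, Ndufs1 -0.12 to 0.69, Ndufa2 -0.11 to 0.54, Ndufa5 -0.062 to 1.41, Ndufs3 -0.080 to 0.87, Ndufa13 -0.10 to 0.82, Ndufa1 -0.043 to 0.54, Ndufb2 -0.20 to 1.05, Ndufb9 -0.11 to 0.96, Ndufa4 -0.19 to 1.02, Ndufaf2 -0.11 to 0.20, Ecsit -0.067 to 1.20, Cox6a2 -1.32 to 7.37, Cox7a1 -0.20 to 4.38. The lowest of each was without R-propranolol replicate 5, except for Ndufa4l2, which was lowest without R-propranolol replicate 2. Under library size alone with all tumors the value that turned was Ndufaf2 -0.096. Under voom with quality weights they were Ndufs4 -0.072, Ndufs1 -0.078, Ndufa2 -0.064, Ndufs3 -0.024, Ndufa13 -0.13, Ndufa1 -0.021, Ndufb10 -0.0023, Ndufb2 -0.19, Ndufb9 -0.031, Ndufa4 -0.12, Ndufaf2 -0.045, Ecsit -0.037, Atp5sl -0.061, Cox6a2 -0.77, Cox7a1 -0.20, Ndufa4l2 -0.42. Under the replicate block they were Ndufs4 -0.074, Ndufs1 -0.12, Ndufa2 -0.11, Ndufa5 -0.047, Ndufs3 -0.077, Ndufa13 -0.10, Ndufa1 -0.038, Ndufb2 -0.20, Ndufb9 -0.11, Ndufa4 -0.19, Ndufaf2 -0.11, Ecsit -0.067, Cox6a2 -1.22, Cox7a1 -0.18. With R-propranolol replicate 5 left out, the values were Ndufs4 -0.076, Ndufs1 -0.12, Ndufa2 -0.11, Ndufa5 -0.049, Ndufs3 -0.079, Ndufa13 -0.11, Ndufa1 -0.040, Ndufb2 -0.20, Ndufb9 -0.12, Ndufa4 -0.19, Ndufaf2 -0.12, Ecsit -0.069, Cox6a2 -1.06, Cox7a1 -0.18 under the replicate block. They were Ndufs4 -0.076, Ndufs1 -0.11, Ndufa2 -0.11, Ndufa5 -0.059, Ndufs3 -0.078, Ndufa13 -0.10, Ndufa1 -0.040, Ndufb2 -0.19, Ndufb9 -0.11, Ndufa4 -0.19, Ndufaf2 -0.10, Ecsit -0.065, Cox6a2 -1.32, Cox7a1 -0.20 under DESeq2's size factors. They were Ndufs4 -0.14, Ndufs1 -0.17, Ndufa2 -0.17, Ndufa5 -0.12, Ndufs3 -0.13, Ndufa3 -0.031, Ndufa13 -0.16, Ndufa1 -0.098, Ndufb10 -0.040, Ndufb2 -0.25, Ndufb9 -0.16, Ndufab1 -0.024, Ndufa4 -0.24, Ndufaf5 -0.031, Ndufaf2 -0.16, Ndufaf1 -0.012, Ecsit -0.12, Atp5sl -0.036, Cox6a2 -1.39, Cox7a1 -0.25 under library size alone.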

Other observations

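The gene of assembly factor Ndufaf8 is in the table under its older symbol 1810043H04Rik, which RefSeq lists as a synonym, and was left out by the rule on symbols. It was at 9.30, 10.2, 11.7 and 11.3 CPM in the vehicle tumors and at 9.53, 8.41, 9.20, 8.57 and 30.3 CPM in the treated tumors. Without R-propranolol replicate 5 its log2 fold change was -0.25 (SE 0.11, 95% interval -0.51 to 0.01), with 3 of 4 treated tumors between 8.41 and 9.20 CPM and an adjusted p of 0.9995 by edgeR.

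The summed level of the 10 regulators of mitochondrial biogenesis was 472, 465, 458 and 472 CPM in the vehicle tumors. It was 485, 484, 488, 523 and 619.6 CPM in the treated tumors, with each treated tumor above each vehicle tumor on the TMM scale. Scaled by library size alone the groups overlapped, at 483 to 518 CPM under vehicle and 466 to 546 CPM under R-propranolol. On the TMM scale, Esrra was at 181 CPM in R-propranolol replicate 5 and at 35.0 to 43.8 CPM in the other tumors. Of the 10 genes, 5 were at their highest in that tumor and 4 at their lowest. The sum was not tested.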
